A study of Mus musculus with 9 samples.

Results

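The mitochondrial ribosomal proteins were taken as every protein-coding gene whose symbol starts with Mrpl or Mrps followed by a number and whose transcript reached 1 CPM in at least 4 of 9 libraries. CPM is a count relative to the size of its library. That size was the plain total for this rule and a scaled total for the levels printed below. Of 83 matching symbols, 78 were protein coding and 5 were processed pseudogenes. The rule kept 77 genes of the 51912 in the count table, 48 for the large subunit (Mrpl) and 29 for the small subunit (Mrps). Each of the 77 reached 1 CPM in all 9 libraries, and each was tested. The lowest gene inside the limit was Mrpl44, with 23.4 ± 0.978 CPM in E-cad-KO libraries and 22.04 ± 2.30 CPM in WT libraries (SD, n = 5 and 4). Outside it lay Mrpl53, with 0.0510 ± 0.0308 CPM in E-cad-KO and 0.0707 ± 0.0316 CPM in WT, whose 695-base principal transcript lies within exons of the predicted gene Gm42688 on the same strand.

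The libraries came from organoids, multicellular epithelial fragments isolated from mammary tumours of FVB/NJ mice with the MMTV::PyMT transgene, in which the mouse mammary tumour virus promoter drives the polyoma middle T oncogene in mammary epithelium. The mice also carried the (R26)pCA::mT/mG reporter, whose fluorescent protein switches after Cre acts. In the 5 E-cad-KO libraries Cdh1, the gene of the epithelial adhesion protein E-cadherin, was Cdh1fl/fl, and in the 4 WT libraries it was Cdh1+/+. Organoids of both groups received adenovirus with Cre overnight and were then cultured for 48 h in 3D collagen I with b-FGF2, so Cre, virus, oncogene and reporter are shared, and cells that Cre missed are part of the E-cad-KO gels. Which animals gave which library is not in the labels, and p-values therefore reflect spread among these 9 libraries, which may be partly technical.

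Mitochondria keep their own ribosome, which translates the few proteins encoded in mitochondrial DNA, all of them membrane subunits of the respiratory chain and of ATP synthase. Its proteins are encoded in the nucleus, made in the cytosol and imported, and they assemble with mitochondrial ribosomal RNAs into a large subunit, which forms peptide bonds, and a small subunit, which reads the mRNA. Some of the proteins descend from bacterial ribosomal proteins and others were added in the mitochondrial lineage.

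Library totals ran from 44890302 to 64763645 counts, and single counts of a member in a library lay between 1040 and 8432. Cdh1 averaged 91.3 ± 15.5 CPM in E-cad-KO and 189 ± 44.1 CPM in WT (log2 fold change -1.05, SE 0.16, adjusted p = 0.0275 by edgeR's quasi-likelihood test with Benjamini-Hochberg adjustment). Its edgeR adjusted p was above 0.05 without E-cad-KO 1 (0.0664), 3 (0.0764), 4 (0.0657) or 5 (0.0644) and without WT 3 (0.0904). Krt8, a keratin of luminal epithelium, lay between 1099 and 1724 CPM over the 9 libraries and Epcam, an epithelial surface protein, between 543 and 864 CPM. Of the 12 mammary epithelial markers, Cdh1 included, 8 had positive and 4 negative log2 fold changes, 6 and 2 of them at an unadjusted p under 0.05, with a median of 0.23, and Cdh1 was the 1 called by edgeR. Their sums were 5476 to 7177 CPM in E-cad-KO and 4501 to 6310 CPM in WT, and their part in the members' results was not tested. RNA of other cells in the frozen gels was also counted. Of the 14 macrophage markers tested, 12 had a negative log2 fold change. All 15 macrophage markers, tested or not, summed to 348 to 417 CPM in E-cad-KO and 383 to 552 CPM in WT, with WT 4 highest. Cd14 alone made 166.6 to 391.8 CPM of that over the 9 libraries, whereas Adgre1, which encodes F4/80, lay between 0.112 and 4.03 CPM and Fcgr1 was at 0 in at least 1 library. The 12 fibroblast markers, 9 of them negative, summed to 1344 to 1854 CPM in E-cad-KO and 1008 to 2251 CPM in WT. The 8 endothelial markers tested were each negative. All 10 endothelial markers, tested or not, were scarce and summed to 6.46 to 11.6 CPM in E-cad-KO and 7.37 to 21.9 CPM in WT. No gene of these 3 marker lists was called by edgeR, 2 endothelial markers being lower at an unadjusted p under 0.05. Over all genes tested 1.41% were called, and 8.74% were higher and 7.99% lower at that unadjusted p. The part of other cells in the results below was not tested apart from a fit with a macrophage score as covariate.

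On the TMM scale explained below, the summed transcripts of mitochondrial ribosomal proteins were slightly lower in E-cad-KO libraries. The 77 genes together had 3946, 3884, 4013, 4056 and 3927 CPM in E-cad-KO 1 to 5, against 4254, 4190, 4221 and 4347 CPM in WT 1 to 4. Every E-cad-KO sum lay below every WT sum. CPM here is scaled with TMM factors, which correct library sizes for the genes that take up most counts, and the scaling matters for a difference of this size. As a plain percentage of all counts of a library, the same genes took 0.409, 0.382, 0.396, 0.410 and 0.405% in E-cad-KO, against 0.400, 0.406, 0.424 and 0.453% in WT, and on that scale the groups overlapped through WT 1 and WT 2. In bulk RNA, less transcript per cell cannot be told apart from a smaller share of the cells that carry most of it.

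The large subunit genes summed to 2618, 2589, 2688, 2706 and 2644 CPM in E-cad-KO 1 to 5, against 2874, 2803, 2827 and 2909 CPM in WT 1 to 4. For the small subunit the sums were 1328, 1295, 1325, 1350 and 1283 CPM in E-cad-KO, against 1380, 1387, 1395 and 1439 CPM in WT. Both subunits were below WT in each E-cad-KO library, and the ratio of large to small sums overlapped, at 1.972 to 2.061 in E-cad-KO and 2.021 to 2.083 in WT.

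**Figure D1:**
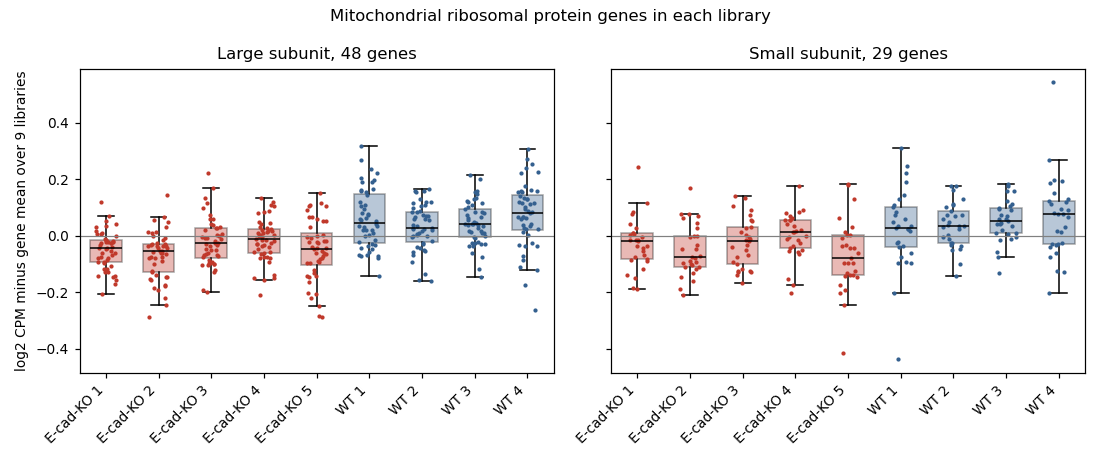
Level of each mitochondrial ribosomal protein gene in each library, as log2 CPM minus the gene's mean over the 9 libraries (y axis), for 48 large subunit genes (left) and 29 small subunit genes (right). Points are genes, boxes span the quartiles with the median as a line, and whiskers reach the farthest gene within 1.5 box lengths. The E-cad-KO boxes (red) sit mostly below 0 and the WT boxes (blue) mostly above it, with wide overlap of single genes.

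Per gene, the differences were small and few passed the test. Across all 17289 genes tested, 244 were called at an adjusted p under 0.05, which is 1.41% (0.908% higher and 0.503% lower in E-cad-KO). Of the 77 mitochondrial ribosomal protein genes 2 were called, Mrps16 and Mrpl48, both lower in E-cad-KO, and none was called higher. At an unadjusted p under 0.05, 24 of the 77 (31.2%) were lower and 0 were higher, against 7.99% and 8.74% of all genes tested. The 24 became 15 without E-cad-KO 1 and 14 without WT 1 (6.14% and 7.52% of all genes), and 11 with length and GC offsets (6.14%). In 14 of the 77 (18.2%) every E-cad-KO library was below every WT library, against 3.83% of all genes, and in 0 was every E-cad-KO library above (4.28% of all genes). The log2 fold changes ran from -0.31 to 0.14 and were negative for 65 of 77 genes (84.4%), against 52.0% of all genes.

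In the large subunit 41 of 48 log2 fold changes were negative, 19 with an unadjusted p under 0.05, and their median was -0.10, a difference of -6.88% in E-cad-KO relative to WT. In the small subunit 24 of 29 were negative, 5 with an unadjusted p under 0.05, and their median was -0.08, or -5.30%. The median over all genes tested was -0.01. With library totals in place of TMM factors the medians were -0.07 in the large and -0.05 in the small subunit, against 0.02 over all genes, and 57 of 77 genes were negative. The counts lower with an unadjusted p under 0.05 were then 6 and 5, or 11 of 77 together, against 5.67% of all genes. With length and GC offsets the medians were -0.06 and -0.04, and 50 of 77 genes were negative. With the macrophage score as covariate the medians were -0.10 and -0.08, 4 genes were called in each subunit, and 1186 were called over all genes.

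**Figure D2:**
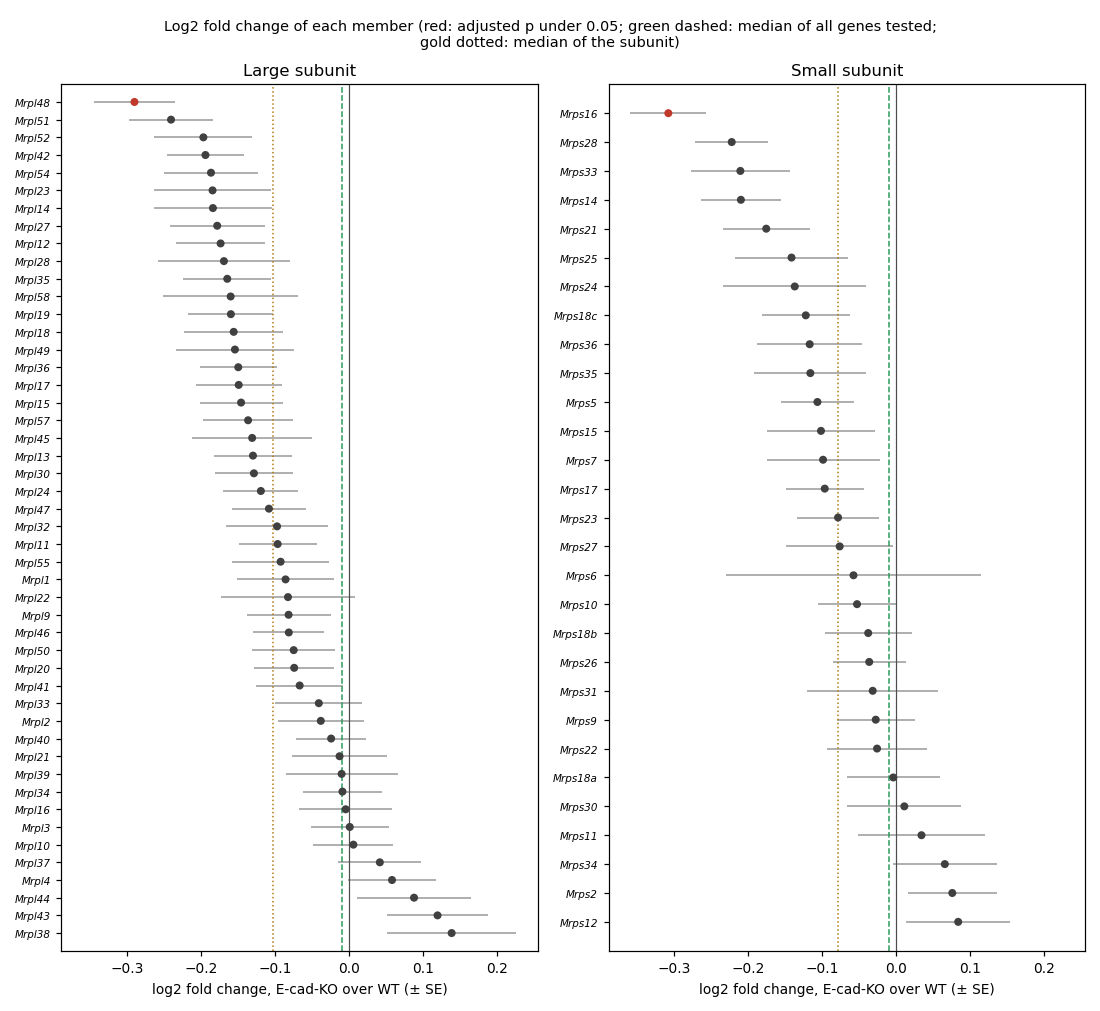
Log2 fold change of E-cad-KO over WT with its standard error (x axis) for each large subunit gene (left) and small subunit gene (right), ordered by value. Mrpl48 and Mrps16 in red had an adjusted p under 0.05, the gold dotted lines mark the subunit medians of -0.10 and -0.08, and the green dashed line marks the median of all genes tested, -0.01.

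Mrps16 is the mitochondrial counterpart of bacterial ribosomal protein S16, and mutation of its human gene causes a severe defect of oxidative phosphorylation. It lies on the minus strand of chromosome 14, from 20389304 to 20393634 (GRCm38). It had 37.4, 40.5, 38.9, 38.2 and 38.6 CPM in E-cad-KO 1 to 5, against 50.4, 48.1, 48.4 and 44.9 CPM in WT 1 to 4. The 5 E-cad-KO values were close together and the groups did not overlap. The transcript fell by 0.31 on the log2 scale (SE 0.05, -19.2%, adjusted p = 0.0310, edgeR). The call was lost when any library other than WT 4 was left out: the edgeR adjusted p was 0.0761, 0.0502, 0.0768, 0.0657 and 0.0666 without E-cad-KO 1 to 5 in turn, and 0.0591, 0.0569, 0.101 and 0.0211 without WT 1 to 4 in turn, while the log2 fold change stayed between -0.34 and -0.28. It was also lost with length and GC offsets (0.0775) and with WT 1 and WT 4 both out (0.0671).

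Mrpl48 is a protein of the large subunit's central protuberance with no bacterial counterpart in that subunit. Its gene runs from 100545751 to 100608301 on the minus strand of chromosome 7. The libraries held 40.7, 36.9, 36.0, 36.9 and 37.8 CPM of it in E-cad-KO 1 to 5, against 44.3, 44.7, 47.3 and 48.0 CPM in WT 1 to 4. Again each E-cad-KO library was below each WT library. The transcript fell by 0.29 on the log2 scale (SE 0.05, -18.2%, adjusted p = 0.0367, edgeR). In fits of 8 libraries the edgeR adjusted p was 0.0591, 0.0740, 0.0939, 0.0911 and 0.0809 without E-cad-KO 1 to 5 in turn, and 0.0588, 0.0617, 0.120 and 0.0523 without WT 1 to 4 in turn. It was 0.0515 with no filter on low counts, 0.101 with library totals and 0.120 with WT 1 and WT 4 both out. Exons of Mrpl48 overlap those of Rab6a, a Golgi trafficking GTPase on the other strand, by 708 bases, and the strand setting of the counting is not given in the sources used here. Rab6a averaged 155 ± 8.37 CPM in E-cad-KO and 133 ± 17.2 CPM in WT, a difference in the other direction. The processed pseudogene Mrpl48-ps had 7.53 ± 1.32 CPM in E-cad-KO and 8.25 ± 0.368 CPM in WT, and how reads were divided between it and Mrpl48 was not tested.

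The promoters of both called genes are shown, whatever letters they hold. The letters searched for are those of factors known for nuclear-encoded mitochondrial genes. RefSeq sequences on GRCm38.p6, from 250 bases before to 50 bases after a transcript start, were searched on both strands. The search was for CCGGAAG, a core of ETS-family sites such as those of GABP, and for AAGATGGCG, the letters of YY1 sites. For NRF1 it used a consensus in which 1 position may hold any letter, and which is not a palindrome. Matches are in capitals, each read 5′ to 3′ on the gene's strand, where a match to the reverse complement appears as CTTCCGG. For each gene the start with most matches was taken, so the matches counted below are the most at any of its starts. For Mrps16 this was 1 of 2 starts, at chr14:20393441-20393740 (minus strand), 144 bases from the start of the principal transcript. For Mrpl48 it was 1 of 4 starts, at chr7:100583081-100583380 (minus strand), 28 bases from the start of the principal transcript. The other starts are not shown.
Mrps16: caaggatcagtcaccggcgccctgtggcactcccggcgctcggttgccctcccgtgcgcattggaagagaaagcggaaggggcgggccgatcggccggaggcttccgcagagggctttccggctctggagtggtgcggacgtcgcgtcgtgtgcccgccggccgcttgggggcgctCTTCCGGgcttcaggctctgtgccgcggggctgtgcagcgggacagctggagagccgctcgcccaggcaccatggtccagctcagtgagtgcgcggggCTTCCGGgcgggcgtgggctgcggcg
Mrpl48: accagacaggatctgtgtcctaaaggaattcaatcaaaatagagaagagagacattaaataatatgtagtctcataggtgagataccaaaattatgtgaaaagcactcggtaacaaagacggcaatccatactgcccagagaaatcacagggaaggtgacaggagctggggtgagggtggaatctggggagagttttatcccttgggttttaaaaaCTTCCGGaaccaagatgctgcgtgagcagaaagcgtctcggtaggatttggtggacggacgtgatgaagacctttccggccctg
The Mrps16 window holds the ETS letters 2 times and the Mrpl48 window 1 time, and neither holds those of NRF1 or YY1. Outside the called genes, the member with the smallest p whose window holds the NRF1 letters was Mrps21, at chr3:95871465-95871764 (minus strand), which also holds the ETS letters, and the one whose window holds the YY1 letters was Mrpl42, at chr10:95501900-95502199 (minus strand).
Mrps21: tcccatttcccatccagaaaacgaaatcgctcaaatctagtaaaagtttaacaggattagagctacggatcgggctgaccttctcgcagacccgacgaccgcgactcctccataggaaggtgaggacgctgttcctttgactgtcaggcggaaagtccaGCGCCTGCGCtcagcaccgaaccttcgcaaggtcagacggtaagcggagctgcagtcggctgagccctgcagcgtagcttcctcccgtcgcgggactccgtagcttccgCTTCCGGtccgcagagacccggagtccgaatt
Mrpl42: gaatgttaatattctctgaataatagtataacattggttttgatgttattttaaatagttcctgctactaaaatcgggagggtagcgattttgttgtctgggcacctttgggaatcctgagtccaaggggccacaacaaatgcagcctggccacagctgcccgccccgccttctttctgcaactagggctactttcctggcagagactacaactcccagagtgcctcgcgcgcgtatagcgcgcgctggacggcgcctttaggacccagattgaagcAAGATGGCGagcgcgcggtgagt

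Of the 77 genes, 68 had a promoter in the RefSeq table. Those without an entry were Mrpl4, Mrpl13, Mrpl15, Mrpl19, Mrpl38, Mrpl54, Mrps28, Mrps34 and Mrps35. The ETS letters were in 25 of 68 members (36.8%), against 18.5% of 11067 tested genes with a promoter and 40.7% of 59 cytoplasmic ribosomal protein genes. Those of NRF1 were in 13 (19.1%), against 10.5% of tested genes and 8.47% of cytoplasmic ribosomal protein genes. Those of YY1 were in 8 (11.8%), against 3.19% and 5.08%. Over all 17491 genes with a promoter the shares were 12.9% for ETS, 7.17% for NRF1 and 2.14% for YY1. The median log2 fold change was -0.11 over 40 genes with a match, 34 of them negative, and -0.09 over 28 without, 25 of them negative. The letters are a description of these windows and not evidence of binding.

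In the small subunit, the gene nearest the threshold after Mrps16 was Mrps28. Mrps28, the counterpart of bacterial S1, had 38.0, 37.9, 37.2, 35.7 and 39.5 CPM in E-cad-KO 1 to 5, against 42.8, 45.2, 44.9 and 42.9 CPM in WT 1 to 4 (log2 fold change -0.22, SE 0.05, adjusted p = 0.0574, edgeR). Mrps14, the counterpart of bacterial S14, had 63.7, 62.3, 59.1, 56.1 and 61.1 CPM in E-cad-KO, against 73.5, 67.1, 68.7 and 70.5 CPM in WT (log2 fold change -0.21, SE 0.05, adjusted p = 0.0834, edgeR). In both genes each E-cad-KO library was below each WT library, and Mrps28 was called by DESeq2 (adjusted p = 0.00352) and by limma-voom (adjusted p = 0.0307). Mrps14 gained a call in 2 of 21 alternative settings. With length and GC offsets Mrps28 had -0.14 (adjusted p = 0.330, edgeR). Mrps33, a protein of the mitochondrial lineage, averaged 47.7 ± 1.36 CPM in E-cad-KO and 55.2 ± 5.47 CPM in WT (-0.21, adjusted p = 0.146, edgeR), with WT 1 highest at 63.0 CPM, and its value was -0.14 without WT 1 and -0.10 with length and GC offsets. Mrps21, the counterpart of bacterial S21, averaged 80.7 ± 4.41 CPM in E-cad-KO and 91.2 ± 5.05 CPM in WT (-0.18, adjusted p = 0.164, edgeR), with -0.06 under the same offsets.

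In the large subunit, Mrpl51, a protein of the mitochondrial lineage, had 115, 113, 118, 122 and 122 CPM in E-cad-KO 1 to 5, against 133, 133, 138 and 153 CPM in WT 1 to 4 (log2 fold change -0.24, SE 0.06, adjusted p = 0.0655, edgeR). WT 4 was highest, and the lowest WT library was still above the highest E-cad-KO library. DESeq2 and limma-voom called it, with adjusted p-values of 0.00773 and 0.0458. Mrpl42 had 88.6, 94.2, 91.4, 97.9 and 88.5 CPM in E-cad-KO, against 113, 102, 102 and 104 CPM in WT (-0.19, SE 0.05, adjusted p = 0.0942, edgeR). It gained a call in 2 of 21 alternative settings. Mrpl52 averaged 60.4 ± 4.22 CPM in E-cad-KO and 69.2 ± 4.35 CPM in WT (-0.20, adjusted p = 0.167, edgeR), or -0.11 with length and GC offsets. Mrpl54 averaged 48.9 ± 3.80 CPM in E-cad-KO and 55.7 ± 1.96 CPM in WT (-0.19, adjusted p = 0.174, edgeR). Of these 4, Mrpl54 had overlapping groups, through E-cad-KO 4 at 54.9 CPM and WT 1 at 52.9 CPM. The 14 genes whose groups did not overlap, listed after their values were seen, were Mrps16, Mrps28, Mrps14, Mrps33, Mrps21 and Mrps5 in the small subunit and Mrpl48, Mrpl51, Mrpl42, Mrpl52, Mrpl36, Mrpl13, Mrpl30 and Mrpl57 in the large subunit.

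**Figure D3:**
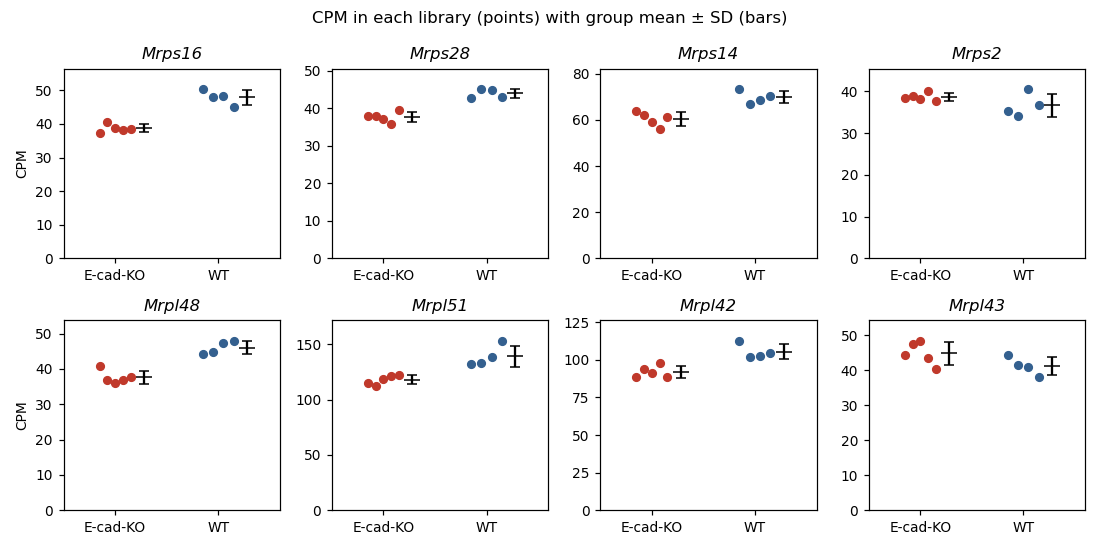
CPM (y axis, from 0) in each library for 4 small subunit genes (top) and 4 large subunit genes (bottom), with E-cad-KO in red left of WT in blue, points for libraries and bars for the mean ± SD of 5 and 4 libraries. The groups do not overlap for Mrps16, Mrps28, Mrps14, Mrpl48, Mrpl51 and Mrpl42, and they overlap for Mrps2 and Mrpl43.

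A minority of 12 genes had positive log2 fold changes, and none of these passed the test. Mrpl43, a protein of the mitochondrial lineage, had 44.4, 47.7, 48.5, 43.4 and 40.4 CPM in E-cad-KO 1 to 5, against 44.4, 41.6, 40.9 and 38.2 CPM in WT 1 to 4 (0.12, SE 0.07, adjusted p = 0.421, edgeR). Mrpl38, which sits in the central protuberance, had the largest positive value, 0.14 (SE 0.09, adjusted p = 0.470, edgeR), with 76.7 ± 7.26 CPM in E-cad-KO and 69.6 ± 7.33 CPM in WT. WT 4 stood at 80.6 CPM there, against 65.5 to 66.2 CPM in the other 3 WT libraries, and without WT 4 the value was 0.22. Mrpl44, Mrpl4 and Mrpl37 had 0.09, 0.06 and 0.04, and these moved with single libraries: Mrpl44 had 0.02 without WT 4 and 0.14 without WT 3, Mrpl4 had 0.019 without WT 2 and 0.09 without WT 3, and Mrpl37 had 0.0065 without WT 2, 0.03 without E-cad-KO 4, 0.06 without WT 3 and 0.07 without WT 4. In the small subunit Mrps12, the counterpart of the S12 protein of the bacterial decoding site, had the largest positive value of 0.08 (SE 0.07, adjusted p = 0.604, edgeR), with 27.98 ± 2.12 CPM in E-cad-KO and 26.4 ± 1.36 CPM in WT, or 0.05 without E-cad-KO 2. Mrps2 had 38.7 ± 0.936 CPM in E-cad-KO and 36.7 ± 2.80 CPM in WT (0.08, or 0.04 without WT 2 and 0.13 without WT 3), and Mrps34, Mrps11 and Mrps30 had 0.07, 0.03 and 0.01, with ranges of 0.01 to 0.11, -0.02 to 0.08 and -0.03 to 0.07 over the fits that left out 1 library. Groups overlapped in each gene of this paragraph, and exons of Mrpl43, Mrpl44, Mrps34, Mrps11 and Mrps30 overlap a gene on the other strand.

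The 3 paralogs of bacterial S18, which occupy different places in the ribosome, differed in value. Mrps18c averaged 23.3 ± 1.27 CPM in E-cad-KO and 25.3 ± 0.775 CPM in WT (-0.12, adjusted p = 0.341, edgeR). Mrps18b averaged 45.6 ± 2.37 CPM in E-cad-KO and 46.8 ± 2.47 CPM in WT (-0.04, adjusted p = 0.812, edgeR). Mrps18a averaged 45.8 ± 1.99 CPM in E-cad-KO and 46.0 ± 3.58 CPM in WT (-0.00, adjusted p = 0.987, edgeR). None passed the test, and each changed sign under at least 1 alternative setting. The symbols do not in every case name the subunit: Mrps18a and Mrps30 are now placed in the large subunit and Mrps36 is a component of the 2-oxoglutarate dehydrogenase complex. With Mrps18a and Mrps30 moved and Mrps36 left out, the medians were -0.10 over 50 large and -0.09 over 26 small subunit genes.

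The genes were also grouped by descent. Of 46 genes with a bacterial counterpart in the same subunit 40 had negative values, with a median of -0.10, and of 28 genes without one 23 had, with a median of -0.08. This grouping was added after the values were seen. By GC content of the longest annotated transcript, 37 of the 39 genes at or under the median GC of the members had negative values (median -0.11), and 28 of the 38 above it had (median -0.08).

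Mean CPM over the 9 libraries ran from 22.8 to 127.5 with a median of 53.8 in the large subunit, and from 24.2 to 85.4 with a median of 42.8 in the small subunit. Scaled by the length of the principal transcript, the medians were 34.9 CPM per kb in the large and 36.2 CPM per kb in the small subunit. The highest levels per kb were those of Mrps21 at 174.9, Mrps6 at 76.1 and Mrps15 at 59.8 in the small subunit and of Mrpl52 at 153.9, Mrpl42 at 147.2 and Mrpl20 at 105.7 in the large subunit. The lowest were those of Mrps25 at 6.98, Mrps35 at 8.90 and Mrps26 at 9.63 CPM per kb and of Mrpl1 at 8.34, Mrpl47 at 8.99 and Mrpl19 at 9.56 CPM per kb. These values depend on which transcript is taken as the principal one, since counts cover all exons of a gene, and exons of Mrps25, Mrpl19 and Mrpl47 overlap those of Nr2c2, Gcfc2 and Ndufb5 on the other strand. Exons of 27 members overlap a gene on the other strand, those of 7 overlap a gene on the same strand, and 45 members have no such overlap. Among the 27 large subunit genes without overlap the median log2 fold change was -0.09, and among the 18 small subunit genes it was -0.10.

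Spread between libraries of a group was low for these genes. The median coefficient of variation was 5.14% over the E-cad-KO libraries and 5.73% over the WT libraries, against 11.4% and 13.4% over all genes tested. All genes tested were not matched to the members in level. They included scarce genes such as Lrrc46 (0.327 CPM in E-cad-KO), while each member averaged at least 22.8 CPM. The part of level in the lower spread was not tested. Mrps6 varied most, by 29.4% over the WT libraries, with 74.9, 57.2, 58.0, 64.2 and 61.6 CPM in E-cad-KO 1 to 5 and 46.8, 66.4, 57.8 and 92.2 CPM in WT 1 to 4. The low WT 1 and the high WT 4 value enclose the E-cad-KO values, and exons of Mrps6 overlap those of Slc5a3 on the same strand. Over the 77 genes, 61 had their lowest level in an E-cad-KO library, 21 of them in E-cad-KO 5, and 64 had their highest level in a WT library, 25 in WT 4 and 20 in WT 1. Of the 9 libraries 5 are E-cad-KO, and the share over all genes was not computed. These counts restate the group difference given above and add no further support to it. With WT 1 and WT 4 left out together, 65 of 77 values were negative, and the medians were -0.08 in the large and -0.06 in the small subunit. In that fit edgeR called 0 members, and 79 genes over all genes. At an unadjusted p under 0.05, 7 large and 4 small subunit genes were lower, 11 of 77 together, against 6.59% of all genes.

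Many of these genes start beside a neighbour. A protein-coding gene on the other strand starts within 1000 bases of the start in 33 of 77 members (42.9%), against 15.1% of 14177 tested protein-coding genes and 16 of 80 cytoplasmic ribosomal protein genes. By the outermost annotated starts, 18 of the 33 pairs point away from each other without overlap (23.4% of members, against 9.42% of tested genes), and in 15 pairs the 5′ ends overlap, as for Mrpl48 and Rab6a. The outermost Mrpl48 start, at 100608301, is not the start whose promoter is printed above. That printed window, chr7:100583081-100583380, lies inside the gene and away from Rab6a. Mrps11 and Mrpl46 are each other's neighbour, with log2 fold changes of 0.03 and -0.08. Of 29 tested neighbours that are not members 18 had negative values, against 52.0% of all genes tested, and their median was -0.07. In edgeR 0 were called, against 1.41% of all genes. At an unadjusted p under 0.05, 5 were lower and 2 higher, against 7.99% and 8.74% of all genes. Examples of like sign, chosen after their values were seen, are Ndufs6 beside Mrpl36 (-0.12 and -0.15) and Ndufb5 beside Mrpl47 (-0.21 and -0.11), both subunits of respiratory complex I, and Twnk, the mitochondrial DNA helicase, beside Mrpl43 (0.04 and 0.12). Other pairs had unlike signs, among them Tmem63b beside Mrpl14 (0.21 and -0.18), Mitd1 beside Mrpl30 (0.16 and -0.13) and Rab6a beside Mrpl48 (0.21 and -0.29). Whether neighbours change together was not tested.

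Genes that work with the mitochondrial ribosome had values of both signs. EdgeR called none of them, against 1.41% of all genes tested. These lists held 5, 27, 17, 17 and 19 tested genes, too few for an absence of calls to say much. At an unadjusted p under 0.05, 1 was higher and 1 lower among other ribosomal proteins, 2 and 2 among assembly genes, and 1 and 2 among translation factors. The counts were 1 and 1 among aminoacyl-tRNA synthetases and 0 and 0 among regulators. Over all genes tested 8.74% were higher and 7.99% lower at that limit. The 5 ribosomal proteins named outside the Mrpl and Mrps scheme were negative for 4 of 5. Aurkaip1 had 89.0 ± 3.01 CPM in E-cad-KO and 96.8 ± 5.09 CPM in WT (-0.12, adjusted p = 0.270, edgeR), and Chchd1 had 60.0 ± 3.58 CPM in E-cad-KO and 66.4 ± 5.63 CPM in WT (-0.15, adjusted p = 0.315, edgeR). Gadd45gip1, also known as CRIF1 and located at the exit of the peptide tunnel, had 41.2, 43.0, 46.3, 44.9 and 41.2 CPM in E-cad-KO 1 to 5, against 28.7, 38.3, 31.6 and 24.3 CPM in WT 1 to 4. Each E-cad-KO library was above each WT library, with a log2 fold change of 0.50 (SE 0.11, adjusted p = 0.0590, edgeR). DESeq2 and limma-voom called it (adjusted p = 0.00249 and 0.0394), as did edgeR without WT 2 (adjusted p = 0.0233), and the value was 0.31 with WT 1 and WT 4 both out. Gadd45gip1 lies on chromosome 8, as Cdh1 does. The members on that chromosome were Mrpl34 at -0.01 and Mrps31 at -0.03.

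Of 27 genes of mitoribosome assembly and rRNA modification 16 were negative, with a median of -0.01. Trmt61b, a mitochondrial RNA methyltransferase, had 22.5 ± 1.33 CPM in E-cad-KO and 19.0 ± 1.48 CPM in WT (0.25, adjusted p = 0.124, edgeR), and Mtg1, a GTPase of large subunit assembly, had 18.3 ± 0.898 CPM in E-cad-KO and 21.0 ± 1.24 CPM in WT (-0.20, adjusted p = 0.158, edgeR). Of 17 translation factors 10 were negative, with a median of -0.03, among them Mrrf, the ribosome recycling factor, at -0.18, while Gfm1, an elongation factor, was at 0.16. Of 17 mitochondrial aminoacyl-tRNA synthetases 7 were negative, with a median of 0.00, and Mars2, which charges methionine tRNA, had 57.0 ± 8.69 CPM in E-cad-KO and 44.3 ± 2.16 CPM in WT (0.36, adjusted p = 0.111, edgeR). DESeq2, which made more false calls on data simulated with edgeR's dispersion estimates, called Mars2 (adjusted p = 0.0253), Trmt61b (0.0341) and Slirp, an RNA stability factor, at -0.18 (0.0409). The same limit holds for the DESeq2 call of Gadd45gip1 above and for the 3 members that DESeq2 called in each subunit, Mrps28 and Mrpl51 among them. Of 19 genes of mitochondrial DNA transcription and of regulators of mitochondrial genes 8 were negative, with a median of 0.04. Yy1, the factor whose letters are marked in the Mrpl42 promoter, averaged 95.1 ± 7.27 CPM in E-cad-KO and 82.2 ± 11.5 CPM in WT (0.21, adjusted p = 0.307, edgeR). Its WT 4 value of 66.6 CPM was lowest, and without WT 4 the log2 fold change was 0.12.

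The mRNAs that the mitochondrial ribosome translates were negative for 12 of 13, with a median of -0.11, and edgeR called none (1 was lower at an unadjusted p under 0.05). Over all genes tested 1.41% were called and 7.99% were lower at that unadjusted p. Of the 13, mt-Co2, mt-Co3, mt-Nd3 and mt-Nd4l averaged under 10 CPM in both groups, against 26570 CPM in E-cad-KO and 28080 CPM in WT for mt-Co1, so their values and the sums do not measure these 4 mRNAs. The other 9 were all negative, with a median of -0.11. With length and GC offsets mt-Nd1 had -0.05, against -0.20 in the fit without them. The 13 summed to 57311 to 70339 CPM in E-cad-KO and 63619 to 70452 CPM in WT, and the groups overlapped. The cytoplasmic ribosomal protein genes had larger differences: 79 of 80 were negative, 68 with an unadjusted p under 0.05, and their median was -0.26. They summed to 69209, 78545, 79156, 73129 and 70665 CPM in E-cad-KO 1 to 5, against 102939, 86223, 86553 and 77568 CPM in WT 1 to 4, with WT 1 far above the others and WT 4 inside the E-cad-KO range. The mitochondrial ribosomal protein sums had WT 4 highest. Of the 80, Rps21 was called, with 433 ± 32.4 CPM in E-cad-KO and 551 ± 32.8 CPM in WT (-0.35, adjusted p = 0.0421, edgeR). That call was lost without any library other than WT 4, at adjusted p-values of 0.0604 to 0.120, and its value was -0.22 with length and GC offsets (adjusted p = 0.192). Whether the lists differ from each other was not tested. Of 20 proliferation genes 15 were negative, 0 were called by edgeR (3 were lower at an unadjusted p under 0.05), and their sums were 1705 to 2149 CPM in E-cad-KO and 1932 to 2228 CPM in WT.

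**Figure D4:**
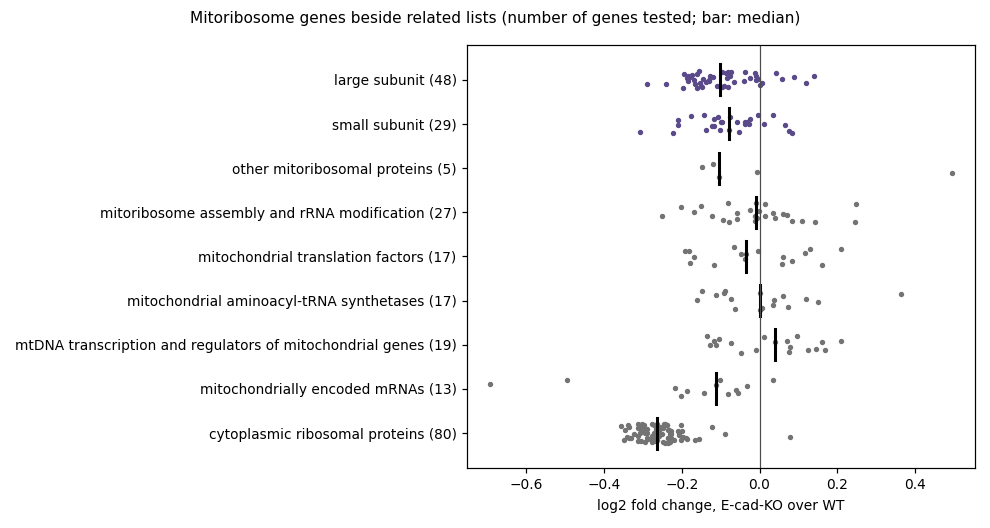
Log2 fold change of E-cad-KO over WT (x axis) for each tested gene of the large and small subunit (purple) and of 7 related lists (grey), with a black bar at each list's median. The subunit medians lie at -0.10 and -0.08, near the other mitoribosomal proteins at -0.10 and the mitochondrially encoded mRNAs at -0.11. The translation factors lie at -0.03, the assembly genes at -0.01 and the cytoplasmic ribosomal proteins at -0.26, and Gadd45gip1 stands alone at 0.50.

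**Figure D5:**
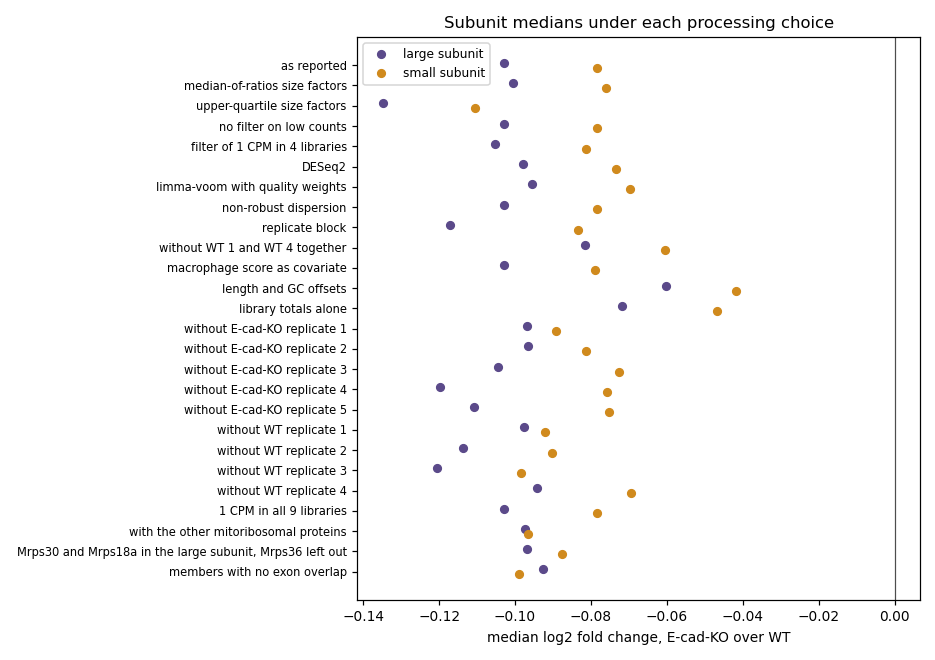
Median log2 fold change of E-cad-KO over WT (x axis) of large subunit (purple) and small subunit genes (orange) under each processing choice (rows). The large subunit ran from -0.13 to -0.06 and the small subunit from -0.11 to -0.04, with upper-quartile scaling at the low end and length and GC offsets at the high end of both, and no median reached 0.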

How the data were processed

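The authors deposited 1 table of raw counts per gene (whole numbers, not normalised) for 9 libraries. Per the labels' protocols, whole collagen gels were flash frozen, RNA came from RNeasy columns, and the TruSeq kit was stranded and selected mRNA. The submitters' processing notes name GRCm38, HTSeq, TopHat2 and Bowtie2. Not given in the sources used here are versions, annotation release and strand setting.

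Symbols, biotypes, positions, exon overlaps and lengths came from GENCODE M21 on GRCm38, promoters from RefSeq on GRCm38.p6. Symbols were found for 51633 of 51912 genes, and the other 279 held at most 0.0534% of a library's counts. Total counts per library were 44890302 to 64763645, so 1 CPM was 44.9 counts in the smallest. Genes were tested with edgeR 4.0.16 in R 4.3.3 (quasi-likelihood F-test, TMM, robust dispersions, filterByExpr, 17289 genes, group as the only term, Benjamini-Hochberg adjustment over all of them, called under 0.05). Tests were two-sided, SE is the log2 fold change divided by the square root of F, and ± gives the SD. CPM per kb divides mean CPM by the length of the APPRIS principal transcript. A list's score is the mean of its genes' centred log2 CPM (prior count 2). Each pair of libraries differed by more than sampling noise. The fits were tested on simulated data with 200 genes changed, where DESeq2 made more false calls than edgeR and limma-voom. Those data were drawn with edgeR's own dispersion estimates, which may favour edgeR.

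The members and gene lists were chosen with earlier results of these data known. Named are Cdh1, called members, per subunit the 5 of smallest p in each direction and the 3 highest and 3 lowest per kb, the Mrps18 paralogs, the members nearest the level limit, and up to 3 genes of each mitochondrial and ribosomal list. Alternatives were other size factors, filters, DESeq2 1.42.0, limma-voom (limma 3.58.1), non-robust dispersions, a replicate block, libraries left out, a macrophage covariate, length and GC offsets, and other member lists. Library totals as the only scaling, the other placement of Mrps30, Mrps18a and Mrps36, and members without exon overlap were added after seeing the data.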

Additional observations from a re-analysis of the deposited data

Results flagged for a closer look

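In 112 groups of libraries looked at (54 named genes and both subunit scores, in E-cad-KO and in WT), 5 held a library whose gap to its nearest neighbour was a large part of the group's range, and chance gives about 1 in 20. For Mrpl38 in WT that share was 0.951, with WT 4 at 80.6 CPM and the other WT libraries at 65.5 to 66.2 CPM. For Polg, the mitochondrial DNA polymerase, in E-cad-KO it was 0.866, with E-cad-KO 1 at 64.5 CPM and the others at 56.0 to 57.1 CPM. For Noa1, a GTPase of small subunit assembly, in E-cad-KO it was 0.803, with E-cad-KO 2 at 14.7 CPM and the others at 18.4 to 19.3 CPM. For Cdh1 in E-cad-KO it was 0.790, with E-cad-KO 2 at 118 CPM and the others at 79.0 to 87.3 CPM. For mt-Nd1, a mitochondrially encoded complex I subunit, in E-cad-KO it was 0.740, with E-cad-KO 5 at 6355 CPM and the others at 7561 to 7983 CPM. What sets these libraries apart was not tested.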

How the results depend on the processing

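Both subunit medians stayed negative under each alternative run. The large subunit median of -0.10 moved to -0.13 with upper-quartile factors, -0.0815 with WT 1 and WT 4 out, -0.0602 with offsets for length and GC, and -0.0718 with library totals. The small subunit median of -0.08 moved to -0.11 with upper-quartile factors, -0.0417 with the offsets and -0.0467 with library totals. The median of all genes was -0.04 with upper-quartile factors and 0.02 with library totals, and the 77 members' median lay -0.09 from it in both, as in the reported fit, but -0.05 from it with the offsets. Over all genes, 244 calls became 1132 with DESeq2, 511 with limma-voom, 79 without WT 1 and WT 4, 1186 with the macrophage score, 156 with the offsets, 374 with library totals and 9 to 334 with 1 library left out, 9 being without WT 3. Calls split into 157 higher and 87 lower as reported, 123 and 151 with upper-quartile factors, and 303 and 71 with library totals. The cause of these moves was not tested.

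Of the large subunit genes 1 was called as reported, 3 with DESeq2, 2 with limma-voom, 4 with the macrophage score, and 0 with no filter, library totals, WT 1 and WT 4 left out, any 1 library left out (0 to 0) or members without overlap. Of the small subunit genes 1 was called as reported, 2 with upper-quartile factors, the 1 CPM filter or limma-voom, 3 with DESeq2, 4 with the macrophage score, 0 without WT 1 and WT 4 or with the offsets, and 0 to 1 with 1 library left out, 1 being without WT 4.

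With the replicate number as a block, 0 genes were called, in either subunit and over all genes. Same-numbered libraries correlated at -0.3241, 0.2347, -0.0303 and 0.284 after group means were removed. Libraries of unlike number ran from -0.538 (E-cad-KO 2 with WT 4) to 0.5328 (E-cad-KO 2 with WT 1). These values cannot tell whether same-numbered libraries share a preparation, and what the numbers stand for is not in the labels.

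Of 672 values of 32 named members, 611 kept direction and side of the threshold, 24 lost a call, 13 gained one and 24 changed sign. Signs changed to -0.0014 for Mrpl44, -0.0274 for Mrps34, -0.0692 for Mrps11 and 0.0286 for Mrps6 with WT 1 and WT 4 out. With the offsets, Mrpl20 had 0.0376, Mrps18b 0.0365, Mrps18c 0.0025, Mrps6 0.0224 and mt-Atp8, the gene beside these that changed sign, 0.0706. Mrps11 had -0.0068 with limma-voom and -0.0055 with the block, Mrps30 had -0.0203 with upper-quartile factors, Mrps6 had 0.0628 with limma-voom, and Mrps18a had 0.0017 with DESeq2, 0.0228 with the block and 0.0255 with library totals. With 1 library left out, Mrps11 ran from -0.0184 to 0.0798, Mrps30 from -0.0269 to 0.0682, Mrps6 from -0.1839 to 0.1492, Mrps18a from -0.0363 to 0.0509 and Mrps18b from -0.0602 to 0.0018.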
